A study of Mus musculus with 12 samples.

Results

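The cytochrome P450 genes of families 1 to 3, which carry most of the metabolism of drugs and other foreign compounds, were examined in the livers of 12 mice. A gene was taken as a member where its probe set carried a single gene symbol made of Cyp, the family number 1, 2 or 3, a subfamily letter and a gene number, and where several probe sets read 1 gene the one with the greatest average across the 12 arrays was kept. This gave 39 genes (46 probe sets) out of 12393 genes with a single-symbol probe set (22626 probe sets without the array's own controls). A further 2 probe sets that carry several P450 symbols were left out. All were C57Bl/6J mice aged 6 to 8 weeks, either wild type or knocked out for Aag, the gene of alkyladenine DNA glycosylase, which removes alkylated bases from DNA. Livers came from 3 mice in each of 4 groups, namely untreated wild type, untreated knock-out, wild type given MMS and knock-out given MMS. MMS (methyl methane sulfonate) is a directly acting methylating agent, given here once into the peritoneum at 75 mg/kg, with livers taken 6 hours later. For sex, time of day and any injection of untreated mice, the sources used here give nothing, and values of sex-linked genes are given below.

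Cytochrome P450 enzymes are heme proteins of the endoplasmic reticulum that insert an oxygen atom into their substrates with electrons passed on by P450 reductase. In hepatocytes the genes of families 1 to 3 are controlled in large part by ligand-activated receptors: the aryl hydrocarbon receptor (AHR) for Cyp1 genes, and the constitutive androstane receptor (CAR, gene Nr1i3) and pregnane X receptor (PXR, gene Nr1i2) for Cyp2b, several Cyp2c and Cyp3a genes. Many family members also differ between male and female mouse liver.

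Expression was measured on Affymetrix arrays as 1 deposited log2 value per probe set and array. Array medians lay between 7.42 and 7.75, the correlation between any pair of arrays was 0.962 to 0.995, and the closest array belonged to the same group for 9 of 12 arrays. The knocked-out gene, named Mpg on the array, was read by 2 probe sets. At 1 of them the wild-type arrays lay at 6.21 to 6.94 and the knock-out arrays at 4.95 to 5.75, without overlap, and at the other the ranges overlapped (7.84 to 8.50 and 7.36 to 8.18). The 8 hepatocyte markers had a summed level (log2 of the summed signals) of 16.85 to 17.07 over all 12 arrays. On every array the Y-linked Eif2s3y was at 10.77 to 11.45, Kdm5d at 8.80 to 9.83 and Uty at 7.14 to 8.27. Xist was at 4.99 to 6.76, so no array read as female by these genes. Knock-out MMS mouse 2 stood apart for some duct and gut epithelial markers, with Tff2 at 11.63 (6.09 to 7.00 on the other arrays), Epcam at 8.25 and Vil1 at 8.37. Krt19 was at 9.23 in that mouse and at 8.58 in knock-out MMS mouse 1. The gut marker Cdx2 was also highest in mouse 2, at 6.83 (5.75 to 6.52 on the other arrays). Several other markers of these lists did not follow. In mouse 2, Sox9 (8.34) and Fabp2 (12.63) were the lowest of all arrays. Krt7 (6.68), Muc1 (7.23) and Cftr (4.92) lay within the range of the others. Knock-out MMS mouse 1 stood apart for pancreatic acinar markers, with Ctrb1 at 11.06 and Cpa1 at 9.81. In bulk tissue, fewer cells of a type and less RNA per cell cannot be told apart. A gene is called changed below where its limma test, adjusted by Benjamini-Hochberg over all 22626 probe sets, gave a p under 0.05.

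The family split into bright, steady genes and dim or variable ones. Of the 39 probe sets, 18 had a mean of 12 or more on the log2 scale, from 12.14 for Cyp2d22 to 14.07 for Cyp2e1, and all 18 were in the top 10% of genes by value. Another 8 lay from 8 to under 12, 6 from 6 to under 8, and 7 below 6. The value of a probe set also depends on its probes, so these bands place genes on the array's scale and do not rank their transcripts. No detection call came with the values, so a dim probe set cannot be called absent. The bright band held Cyp2a12, Cyp2c23, Cyp2c29, Cyp2c37, Cyp2c50, Cyp2c54, Cyp2c68, Cyp2c70, Cyp2d9, Cyp2d10, Cyp2d22, Cyp2d26, Cyp2e1, Cyp2f2, Cyp2j5, Cyp3a11, Cyp3a13 and Cyp3a25. The band below 6 held Cyp2b13, Cyp2b19, Cyp2c39, Cyp2c65, Cyp2d34, Cyp2j13 and Cyp3a16, of which Cyp2b19 is best known from skin and Cyp2c65 from gut.

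**Figure D1:**
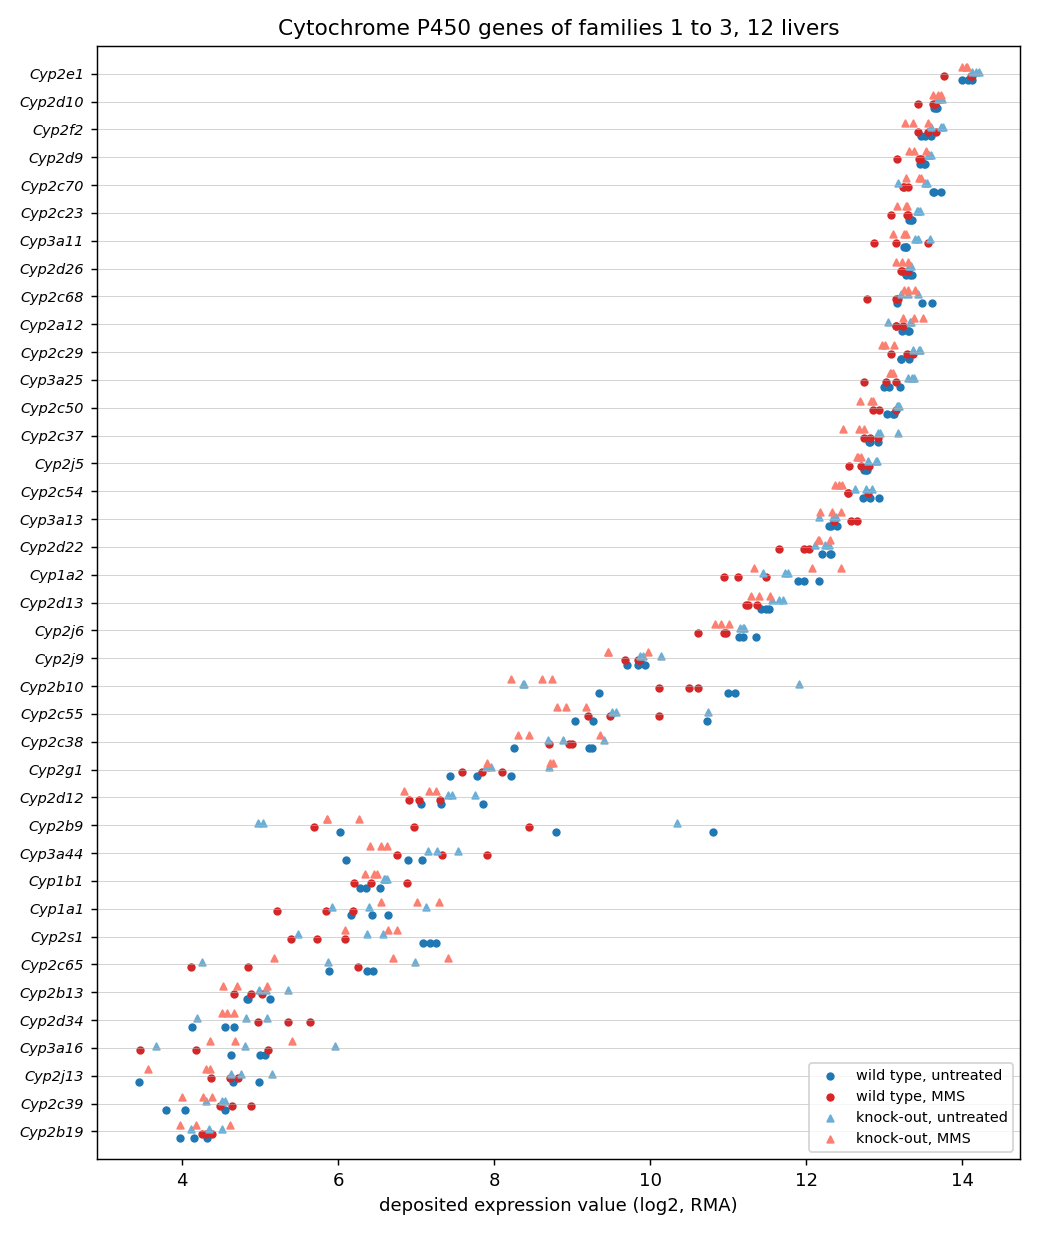
Deposited log2 values (horizontal axis) of the 39 genes in the 12 livers, 1 point per mouse, ordered by mean, with groups by colour and shape. The 18 brightest genes form narrow bands, and the points of Cyp2b9 spread from 4.96 to 10.81.

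After MMS, 1 of the 39 genes was called in wild type, against 6.44% of all probe sets (4.45% called lower), and 0 were called in the knock-out, against 1.51%. At an unadjusted p under 0.05 the counts were 8 members in wild type, where 23.2% of all probe sets passed, and 7 in the knock-out, where 24.8% passed. With both genotypes averaged, 1 member was called, against 11.3% of all probe sets (6.66% called lower), and 11 passed the unadjusted p, against 27.6%. Counts of 1, 0 and 1 are too small to set the members apart from these shares. With a trended robust variance the counts were 3, 3 and 4, against 7.39%, 4.55% and 13.3% of all probe sets. Direction depended on the scaling. As deposited, 30 of 39 members had a log2 change below 0 in wild type, against 56.7% of all probe sets, and with each array centred on its median 12 of 39 did, against 34.5%. In the knock-out, 30 of 39 were below 0 (56.3% of all probe sets), and 33 of 39 after centring (63.1%). Over all probe sets, the median change went with centring from -0.05 to 0.14 in wild type and from -0.06 to -0.13 in the knock-out. The members' median log2 change as deposited was -0.08 in wild type and -0.19 in the knock-out.

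**Figure D2:**
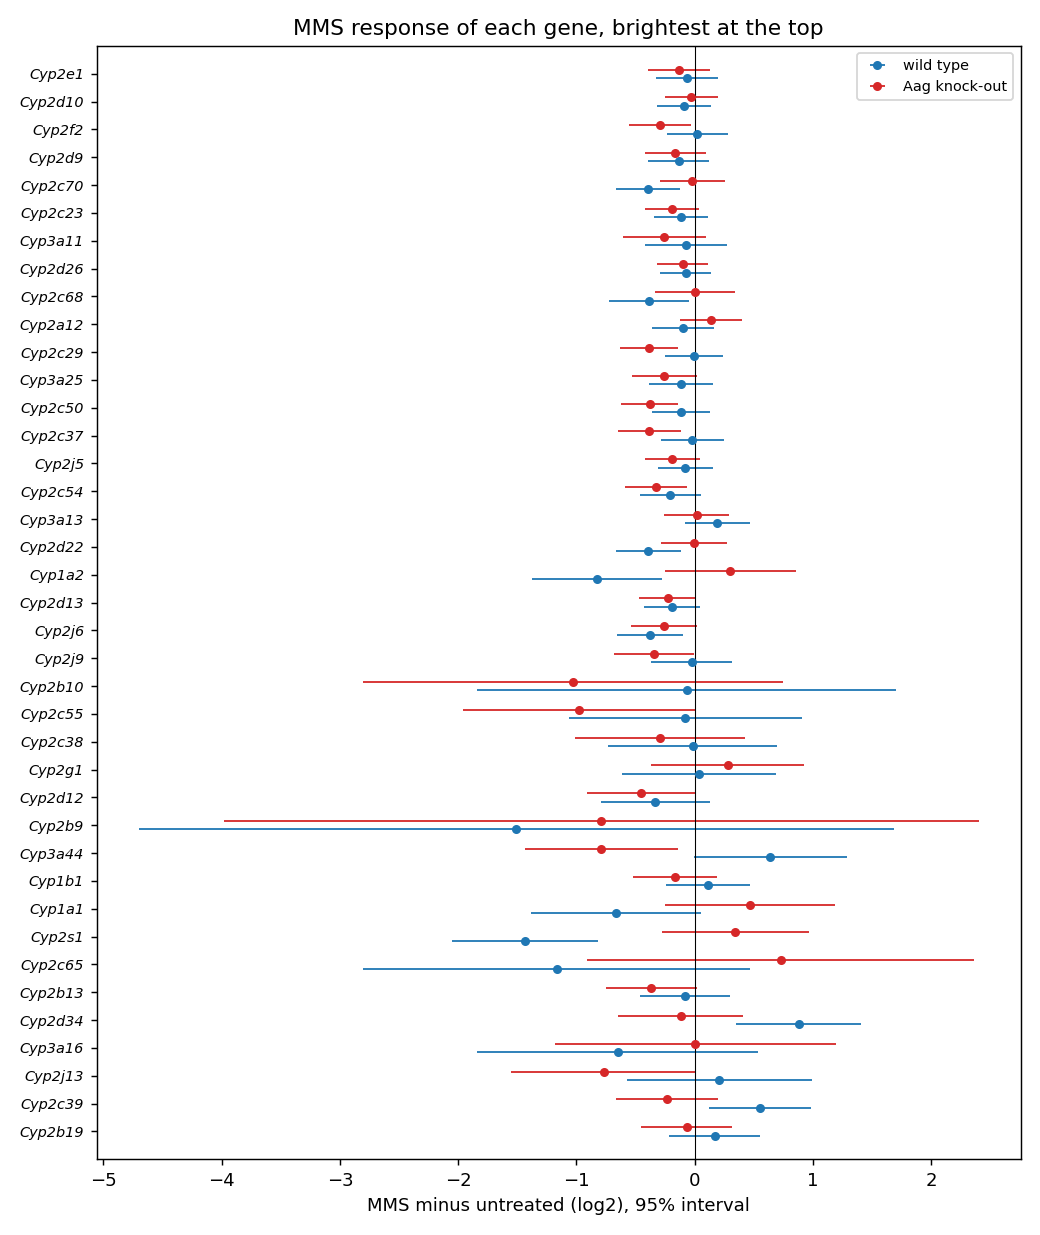
Log2 change after MMS (MMS minus untreated) of each gene with its 95% interval from the limma fit, in wild type (blue) and Aag knock-out (red), 3 mice per group, with genes ordered by mean value. Intervals of the 18 brightest genes stay between -0.72 and 0.46, and those of Cyp2b9 are the widest.

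The called gene was Cyp2s1, an AHR-inducible P450 best known from lung, gut and skin epithelium. Its log2 values were 7.09, 7.17 and 7.26 in untreated wild type and 5.40, 5.73 and 6.09 in wild type after MMS. In the knock-out they were 6.58, 6.37 and 5.49 untreated and 6.75, 6.09 and 6.63 after MMS. The wild-type groups did not overlap, whereas the knock-out groups did. In wild type Cyp2s1 fell by 1.43 ± 0.28 on the log2 scale (SE, n = 3 per group), which is 2.70-fold lower, with a 95% interval of -2.06 to -0.81 and an adjusted p of 0.0173 (limma). In the knock-out the change was 0.34 ± 0.28 (adjusted p = 0.468). The difference of the responses, 1.78 ± 0.40, did not pass (adjusted p = 0.117, limma). Untreated knock-out livers also lay below untreated wild type without overlap, by -1.03 ± 0.28 (adjusted p = 0.422). The call was lost when single wild-type mice were left out, with adjusted p of 0.0666 without untreated mouse 1, 0.0685 without untreated mouse 3, 0.0544 without MMS mouse 1 and 0.0514 without MMS mouse 2.

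Cyp1a1 and Cyp1a2 are the classical AHR targets. Cyp1a1 is scarcely expressed in liver until induced, and Cyp1a2, which oxidises caffeine and aromatic amines, is constitutive there. The start-site windows of both genes are shown so that the core of the AHR's response element, GCGTG, can be looked for in them directly. Sequences are from RefSeq, build GRCm38.p6, 5′ to 3′ on the gene's strand, from 250 bases before the transcription start to 50 bases from it on, with GCGTG on either strand in capitals. Cyp1a1 lies at chr9:57697363-57697662 on the plus strand and Cyp1a2 at chr9:57683606-57683905 on the minus strand.

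Cyp1a1: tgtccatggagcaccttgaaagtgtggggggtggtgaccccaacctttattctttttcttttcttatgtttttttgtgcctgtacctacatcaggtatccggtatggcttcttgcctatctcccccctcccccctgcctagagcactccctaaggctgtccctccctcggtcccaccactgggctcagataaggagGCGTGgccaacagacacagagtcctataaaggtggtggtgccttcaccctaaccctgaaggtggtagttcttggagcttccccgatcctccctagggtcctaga

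Cyp1a2: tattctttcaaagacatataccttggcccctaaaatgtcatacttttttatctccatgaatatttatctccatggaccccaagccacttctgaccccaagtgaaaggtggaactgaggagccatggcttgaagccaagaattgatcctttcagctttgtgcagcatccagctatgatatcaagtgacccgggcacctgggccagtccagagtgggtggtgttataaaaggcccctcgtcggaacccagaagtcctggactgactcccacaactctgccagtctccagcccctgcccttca

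The Cyp1a1 window held the motif 1 time, starting 54 bases before the start, and the Cyp1a2 window held none. GCGTG on either strand was present in 32.4% of the 32851 promoters in the table and in 6 of the 32 members that the table covers (18.8%), namely Cyp1a1, Cyp1b1, Cyp2b10, Cyp2c68, Cyp2j9 and Cyp2j13. A match is a description of the letters, and the absence of one says only that they are not in this window.

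Neither gene was called after MMS. Cyp1a2 was at 12.16, 11.90 and 11.97 in untreated wild type and at 10.94, 11.48 and 11.13 after MMS. In the knock-out it was at 11.76, 11.45 and 11.73 untreated and at 12.07, 12.45 and 11.33 after MMS. Wild-type values after MMS all lay below the untreated ones, and the knock-out values overlapped. The log2 change was -0.83 ± 0.25 in wild type (adjusted p = 0.0755, limma) and 0.30 ± 0.25 in the knock-out (adjusted p = 0.474), and the difference of 1.13 ± 0.35 did not pass (adjusted p = 0.175). The wild-type change was called when knock-out MMS mouse 2 (adjusted p = 0.0486) or mouse 3 (adjusted p = 0.022) was left out, since all groups share 1 estimate of the spread. Without knock-out mouse 3 of each treatment the difference was 1.48 and passed (adjusted p = 0.043), as did the wild-type change (-0.83, adjusted p = 0.0238) and the knock-out excess over wild type after MMS (1.08, adjusted p = 0.0279). Calls over all probe sets rose as well, to 2.27%, 9.82% and 5.98% in these comparisons (0%, 6.44% and 0.0177% with all mice). The left-out MMS liver, at 11.33, lay within the range of wild type after MMS.

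Cyp1a1 was at 6.43, 6.64 and 6.16 in untreated wild type and at 5.84, 5.21 and 6.19 after MMS. It was at 6.39, 7.12 and 5.92 in untreated knock-out and at 7.29, 7.00 and 6.54 in knock-out after MMS. After MMS every knock-out liver lay above every wild-type liver, and the untreated genotypes overlapped. That genotype difference after MMS was 1.20 ± 0.33 (adjusted p = 0.131, limma). The changes with MMS were -0.66 ± 0.33 in wild type and 0.47 ± 0.33 in the knock-out (adjusted p = 0.255 and 0.396). Cyp1b1, the third AHR-regulated form and mainly extrahepatic, lay below its untreated range in the knock-out after MMS without being called. At its other probe sets these groups overlapped. Ahr itself was at 11.58 to 11.63 in untreated wild type and 10.98 to 11.62 after MMS, and was not called (-0.37 ± 0.20, adjusted p = 0.313). Of 6 measured AHR targets of other families, 1 was called, Nqo1, a quinone reductase also controlled by NRF2. It rose by 1.36 in the knock-out and by 0.78 over both genotypes. Untreated knock-out mice 1 and 2, at 8.95 and 8.72, lay below every untreated wild-type liver for Nqo1, and mouse 3 lay within the wild-type range. The other 5 targets were not called in the knock-out. The changes of Ahrr and Aldh3a1 there were below 0, with overlapping groups. A list of 6 is too short to set apart from the share of all probe sets called, 1.51% in the knock-out.

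Cyp2b9 and Cyp2b10 had the widest spread between mice of the same group among the 39 genes. Cyp2b9 is known as a female-predominant form and Cyp2b10 as the standard readout of CAR activation. Cyp2b9 was at 8.79, 6.02 and 10.81 in untreated wild type, 6.97, 8.44 and 5.69 in wild type after MMS, 4.96, 5.04 and 10.35 in untreated knock-out and 5.85, 5.86 and 6.26 in knock-out after MMS. The highest and lowest livers differed 57.4-fold on this scale, a size that is uncertain because no detection call shows whether the lowest value, 4.96, lay above background. Every pair of groups overlapped in range. Its standard deviation within groups, 2.08, was at the 99.95th percentile of all genes. Cyp2b10 was at 11.00, 9.34 and 11.09 in untreated wild type, 10.61, 10.49 and 10.11 in wild type after MMS, 8.37, 8.37 and 11.90 in untreated knock-out and 8.74, 8.61 and 8.21 in knock-out after MMS. Its range was 12.9-fold, and untreated knock-out mouse 3 stood far above the other mice of its group. The other 2 Cyp2b10 probe sets also had untreated knock-out mouse 3 highest of all arrays, at 11.43 and 11.73.

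**Figure D3:**
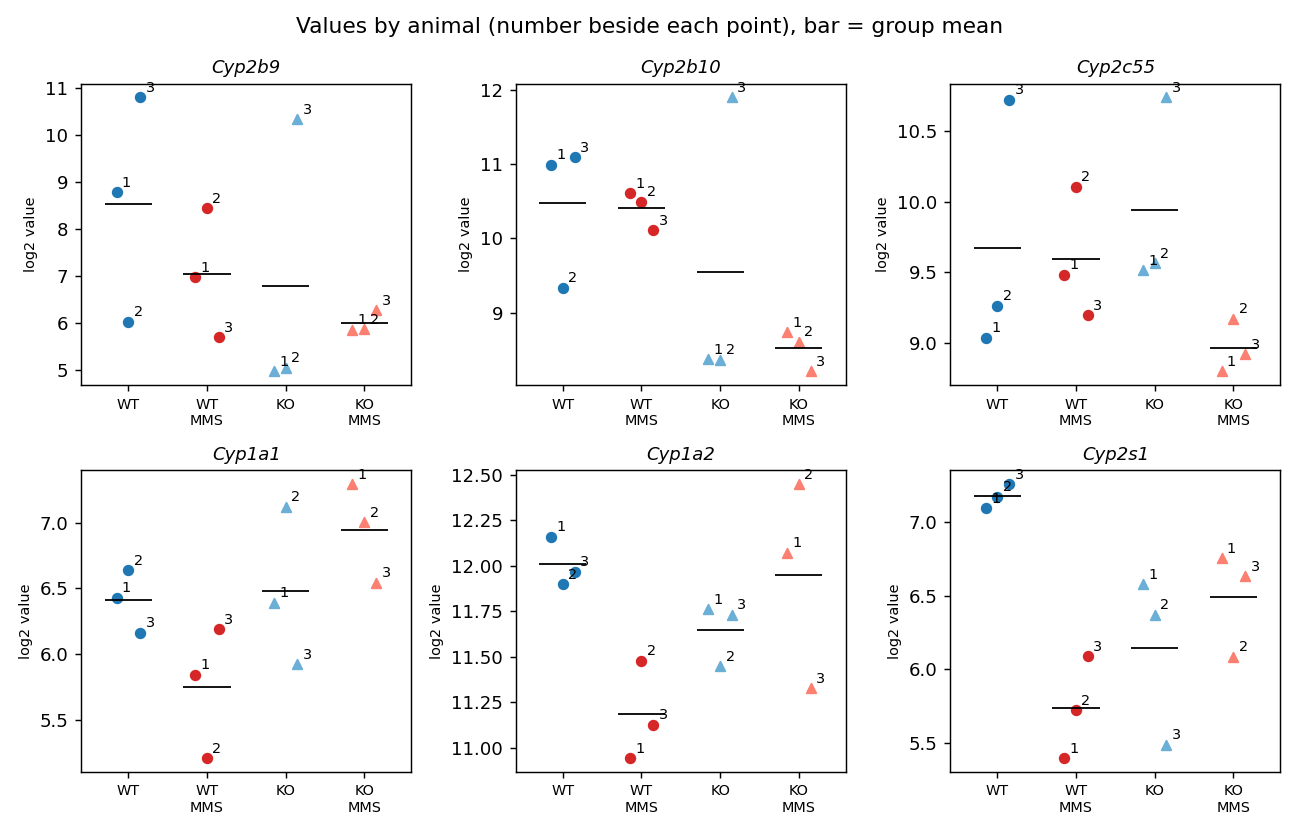
Log2 values of 6 genes in each mouse, with the mouse's number beside its point and the group mean as a bar, each panel on its own scale. Untreated mouse 3 of both genotypes is the highest for Cyp2b9 and Cyp2c55, and the 3 untreated wild-type mice are the highest for Cyp2s1.

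After MMS, Cyp2b10 in the knock-out lay below wild type without overlap, by -1.89 ± 0.81 or 3.70-fold, and did not pass (adjusted p = 0.248, limma). The MMS difference of Cyp2b9 was -1.51 ± 1.45 in wild type and -0.79 ± 1.45 in the knock-out, neither called, and errors of this size leave a several-fold response undetectable. The receptor gene Nr1i3 ranged from 10.02 to 11.08 over the 12 livers and was not called (0.58 ± 0.28 in the knock-out, adjusted p = 0.223), nor was Nr1i2 (-0.05 ± 0.23, adjusted p = 0.914).

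Cyp2b9 and Cyp2b10 varied together over the 12 livers, with Pearson's r = 0.866 (permutation p = 0.00013, adjusted 0.00052 over 4 pairs) and Spearman's rho = 0.783 (permutation p = 0.0041, adjusted 0.0164). The 4 pairs were chosen after their values were seen, and the adjustment covers those 4 alone. It does not allow for the choice among all pairs of members, so the p-values of all 4 pairs are descriptive only. Without the 2 livers farthest from the median of Cyp2b9, untreated mouse 3 of each genotype, r was 0.800, and over deviations from the group means it was 0.910. Cyp2c55, an intestinal and inducible hepatic form, had r = 0.753 with Cyp2b9 (adjusted permutation p = 0.0153) and rho = 0.336 (adjusted permutation p = 0.291). Without the same livers r was 0.211, so that relation rests on them. Cyp2c55 with Cyp2b10 gave r = 0.656 and rho = 0.469 (adjusted permutation p = 0.0271 and 0.205), with r = 0.440 without the 2 livers farthest from the median of Cyp2b10, knock-out mouse 3 untreated and after MMS. Cyp1a1 and Cyp1a2 gave r = 0.464 and rho = 0.441, with an adjusted permutation p of 0.13 for r. The arrays behind each pair are the same, and cross-hybridisation between such related genes was not tested. Cyp4a14, a lipid-oxidising P450 controlled by PPARα and named after its values were seen, also had its highest values in untreated mouse 3 of each genotype, at 13.22 and 13.50.

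The windows around the start sites of Cyp2b10 (chr7:25897408-25897707, plus strand) and Cyp2b9 (chr7:26173159-26173458, plus strand) are shown because the pair moved together. GCGTG on either strand is in capitals, build and source as above.

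Cyp2b10: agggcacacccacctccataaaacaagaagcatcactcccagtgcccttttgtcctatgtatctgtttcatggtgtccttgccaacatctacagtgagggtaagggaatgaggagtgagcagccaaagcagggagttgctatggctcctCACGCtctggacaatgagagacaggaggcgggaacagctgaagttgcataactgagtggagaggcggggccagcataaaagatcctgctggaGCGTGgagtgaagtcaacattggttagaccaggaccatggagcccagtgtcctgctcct

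Cyp2b9: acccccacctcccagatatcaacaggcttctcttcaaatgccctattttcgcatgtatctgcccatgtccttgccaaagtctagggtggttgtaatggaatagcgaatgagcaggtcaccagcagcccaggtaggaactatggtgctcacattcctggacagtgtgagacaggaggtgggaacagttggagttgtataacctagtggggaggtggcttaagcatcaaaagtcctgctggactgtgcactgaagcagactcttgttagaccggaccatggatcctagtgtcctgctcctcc

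In a global alignment 218 bases were identical and 71 differed, 75.4% identity over aligned bases, with 22 gap bases. The Cyp2b10 window held GCGTG 2 times, starting 101 and 9 bases before the start, and the Cyp2b9 window held none. The D-box TTATGTAA, bound by the clock factors DBP, TEF and HLF, was in 0 of 32 member windows and in 0.938% of all promoters on either strand.

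**Figure D4:**
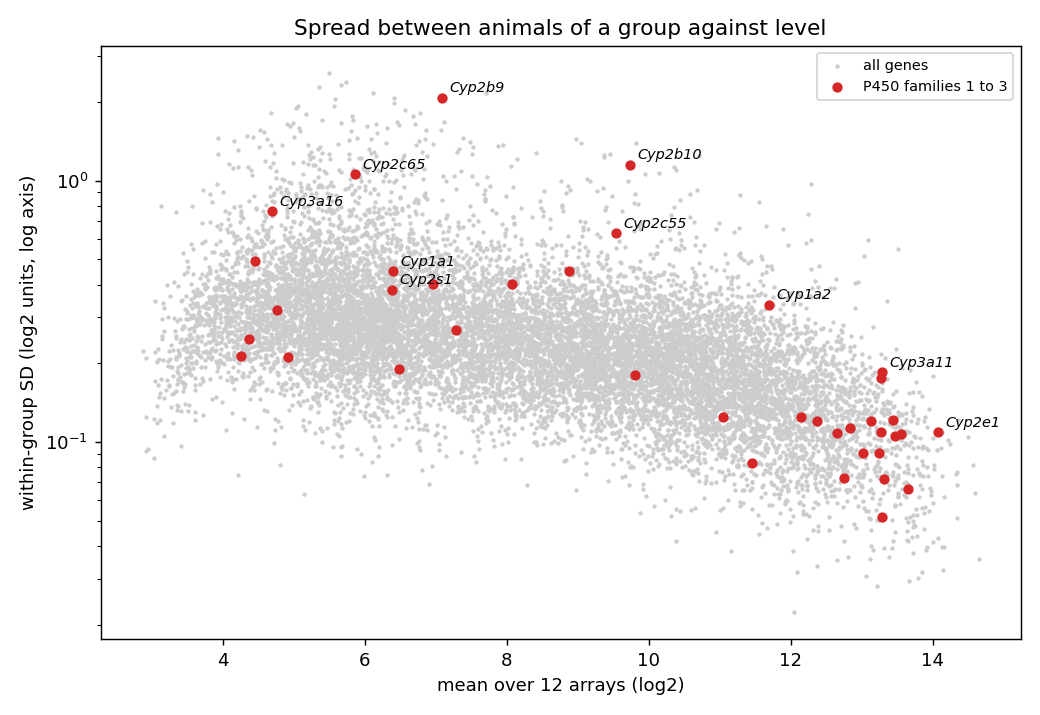
Standard deviation within groups (log axis) against mean log2 value over the 12 arrays, for all genes (grey) and the 39 P450 genes (red). Cyp2b9, Cyp2b10, Cyp2c65, Cyp3a16 and Cyp2c55 lie at the upper edge, and most bright members lie low.

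Of the other variable members, Cyp2c55 ranged 3.85-fold and Cyp2c65 9.88-fold, the latter from a lowest value of 4.11. Cyp2c65 was highest, at 7.41, in knock-out MMS mouse 2, the liver with high Tff2, Epcam and Vil1. Its MMS change in the knock-out was 0.73 with that mouse and 0.24 without it, neither called. In all, 10 members were in the top 15% of genes by spread within groups and 18 in the lowest 15%. Spread falls with level over all genes on these arrays, and the highest value in the table was 14.70.

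None of the 18 bright members was called with MMS. Their median absolute log2 change was 0.10 in wild type and 0.18 in the knock-out, and that of all 1125 genes with a mean of 12 or more was 0.12 and 0.15. Cyp2e1, which oxidises ethanol and paracetamol, was at 14.07, 14.13 and 14.00 in untreated wild type, 14.12, 13.77 and 14.11 in wild type after MMS, 14.12, 14.17 and 14.21 in untreated knock-out and 14.00, 14.05 and 14.06 in knock-out after MMS. Its change with MMS was -0.07 ± 0.12 in wild type and -0.13 ± 0.12 in the knock-out. Cyp3a11, the main mouse counterpart of human CYP3A4, was at 13.25, 13.28 and 13.28 in untreated wild type, 13.55, 12.87 and 13.15 in wild type after MMS, 13.39, 13.58 and 13.43 in untreated knock-out and 13.11, 13.28 and 13.25 in knock-out after MMS. Its knock-out groups did not overlap, with a change of -0.26 ± 0.16 (adjusted p = 0.338, limma), and its wild-type groups did. Cyp2c29, an arachidonic acid epoxygenase, was at 13.37, 13.46 and 13.45 in untreated knock-out and 13.01, 12.97 and 13.12 after MMS, and at 13.21, 13.31 and 13.22 untreated and 13.36, 13.08 and 13.29 after MMS in wild type. Its knock-out change was -0.39 ± 0.11 (adjusted p = 0.0805), and the wild-type ranges overlapped.

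Cyp2j6, of an arachidonic acid epoxygenase subfamily, was the member called with MMS averaged over genotypes. It was at 11.35, 11.13 and 11.19 in untreated wild type and 10.61, 10.97 and 10.95 after MMS, and at 11.15, 11.20 and 11.18 in untreated knock-out and 10.83, 10.90 and 11.01 after MMS. In each genotype all MMS livers lay below all untreated ones. Cyp2j6 fell by 0.32 ± 0.09, which is 1.25-fold, with an adjusted p of 0.043 (limma). This call was lost with arrays centred on their medians (-0.26, adjusted p = 0.101), and when single mice were left out: it then held only without wild-type MMS mouse 2 (adjusted p = 0.0445) or knock-out MMS mouse 3 (adjusted p = 0.0298), and over all single mice the adjusted p reached 0.117.

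In the knock-out many members had all MMS values under all untreated values. After MMS, 19 of 39 members lay entirely below untreated knock-out, against 13.8% of all probe sets, and 0 lay above, against 12.9%. In wild type, 7 lay below, against 20.5%, and 1 above, against 11.3%. The 19 were Cyp1b1, Cyp2c23, Cyp2c29, Cyp2c37, Cyp2c50, Cyp2c54, Cyp2c55, Cyp2d9, Cyp2d12, Cyp2d13, Cyp2d26, Cyp2e1, Cyp2f2, Cyp2j5, Cyp2j6, Cyp2j13, Cyp3a11, Cyp3a25 and Cyp3a44. Their changes were small, -0.10 to -0.98 with a median of -0.26, and none was called. Of the 18 bright members 12 were among them, where 20.3% of all 1125 genes with a mean of 12 or more lay below. In 10 of the 19, untreated knock-out livers had also lain above untreated wild type without overlap, and both comparisons use the same 3 untreated knock-out arrays. At the other probe sets of Cyp1b1, Cyp2d13 and Cyp2j5 the groups overlapped in both comparisons. Their changes with MMS in the knock-out were below 0, and that of Cyp2j5 was at -0.17 for knock-out minus wild type untreated. Leaving out knock-out MMS mouse 1 or mouse 2, a choice made after seeing the data, gave 20 members below each time, against 15.6% and 17.8% of all probe sets. The count was 18 after centring or quantile normalization, against 14.9% and 12.1% of all probe sets. Without knock-out mouse 3 of each treatment 24 lay below and 4 above, against 34.2% and 31.3% of all probe sets.

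Genotype alone gave 0 called members, against 0.0398% of all probe sets untreated, 0.0177% after MMS and 0.0265% over both treatments, and the difference of the MMS responses gave 0, against 0%. At an unadjusted p under 0.05 these counts were 1 untreated (7.16% of all probe sets), 8 after MMS (18.4%), 3 over both treatments (7.9%) and 7 for the difference of responses (17.7%). Untreated, 11 members lay above wild type without overlap (7.52% of all probe sets) and 3 below (10.8%), the latter being Cyp1a2, Cyp2c70 and Cyp2s1. Among the 11, Cyp1b1, Cyp2d13 and Cyp2j5 overlapped at their other probe sets. After MMS, 4 lay above (Cyp1a1, Cyp2a12, Cyp2c68 and Cyp2d22, against 9.92%) and 8 below (Cyp2b10, Cyp2c39, Cyp2c50, Cyp2c54, Cyp2c55, Cyp2d34, Cyp2j13 and Cyp3a44, against 7.71%). Cyp3a44, a female-predominant form, had opposite signs in the genotypes and was not called, at 0.64 in wild type and -0.79 in the knock-out (difference -1.43 ± 0.42, adjusted p = 0.16, limma). In wild type, Cyp2c70, which makes muricholic acids from bile acids, was at -0.40 (adjusted p = 0.0847), Cyp2d22 at -0.39 (adjusted p = 0.092) and Cyp2d34 at 0.88 ± 0.24 (adjusted p = 0.055). Apart from Cyp2s1 and Cyp2j6 no member was called in any of the 7 comparisons, at an adjusted p under 0.05, and Cyp2b13, Cyp2b19, Cyp2c38, Cyp2g1, Cyp2j9 and Cyp3a16 had overlapping groups in each of the pairwise ones.

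Genes that serve the enzymes are given beside the shares of all probe sets called, 6.44% in wild type, 1.51% in the knock-out and 11.3% averaged. Of the 7 measured genes of electron supply 0 were called with MMS, a list too short to set apart from these shares. P450 reductase itself (gene Por) is not among them, since no single-symbol probe set carried that name. Of 11 genes of heme synthesis 1 rose over both genotypes, the mitochondrial glycine carrier Slc25a38 (0.59), and of 5 genes of heme breakdown 1 rose, the biliverdin reductase Blvrb (0.75). Alas1, the rate-limiting enzyme of heme synthesis, ranged from 10.55 to 13.02 and was not called. Among 23 measured receptors and cofactors, Ppargc1a fell by 1.62 in wild type. Of the 17 clock genes, 5 rose and 3 fell in wild type. Dbp was at 8.14 to 8.58 in untreated wild type, 12.49 to 12.77 in wild type after MMS, 10.64 to 13.04 in untreated knock-out and 12.16 to 12.83 in knock-out after MMS. Untreated knock-out livers thus lay above untreated wild type for Dbp as well. Untreated knock-out mouse 3, the liver highest in Cyp2b10, stood apart from mice 1 and 2 in Arntl (7.06, against 10.07 and 10.20). It also did so in Npas2 (5.89, against 8.89 and 9.20) and Per3 (11.52, against 8.63 and 8.54). In Cry1 it was close to mouse 1 (9.55, against 9.62 and 10.12). The part of the clock genes in the P450 values was not tested.

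Markers of other liver cells moved with MMS in wild type, and some lists also did in the knock-out. Endothelial and stellate counts are given first for wild type. Of 10 endothelial markers 5 fell, with the summed level at 13.80 to 13.91 untreated and 13.43 to 13.54 after MMS, and of 10 stellate markers 4 fell, from 13.54 to 14.23 untreated to 12.80 to 13.01 after MMS. Of 22 cytokine and acute-phase genes 8 rose in wild type and 1 in the knock-out. In the knock-out the stellate sum was 13.52 to 13.53 untreated and 13.18 to 13.42 after MMS. The lymphocyte sum in wild type was 9.60 to 9.87 untreated and 8.91 to 9.04 after MMS, and it overlapped in the knock-out. The neutrophil sum was 9.26 to 9.43 and 10.65 to 12.26 in wild type, and 9.30 to 9.80 and 10.21 to 11.92 in the knock-out. Of its members, Mpo, Elane, Camp, Ngp, Csf3r and Cxcr2 overlapped between the wild-type groups. Of the 8 hepatocyte markers 0 were called. The 7 bile duct markers had a median log2 change of -0.42 in wild type (5 of 7 below 0, none called) and 0.29 in the knock-out (1 of 7 below 0), where Krt19 rose by 1.90. Their summed level was 10.18 to 10.76 in untreated wild type, 9.86 to 10.36 in wild type after MMS, 10.17 to 10.31 in untreated knock-out and 10.14 to 12.19 in knock-out after MMS. Krt19 was at 7.41 to 7.69, 6.47 to 7.24, 6.15 to 6.94 and 7.41 to 9.23 in these groups, so its wild-type groups did not overlap. Those of Krt7 and Muc1 did not overlap either, and those of Epcam, Sox9, Tff2 and Cftr did. Without knock-out MMS mouse 2 the knock-out change of Cyp2s1 was 0.55 (adjusted p = 0.349, limma). The wild-type change, -1.43, cannot move when a knock-out mouse is left out. Only the shared spread behind its test does (adjusted p = 0.0179, limma). The part of these markers in the response of Cyp2s1 was not tested.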

How the data were processed

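Liver RNA of 12 mice was hybridised singly to Affymetrix arrays, 3 per group, and mice are separate animals per the labels' titles. The deposited values are log2 expression made with RMA, per the submitters' processing notes. Version, chip definition and the set of arrays normalized jointly: not given in the sources used here. That the base is that of log2 was inferred from the range of the values. Of 22690 rows, 64 control probe sets were left out. A single symbol was given to 20380 probe sets, several to 691 and none to 1555. The number of arrays limits the precision.

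One mean per group was fitted to all 12 arrays with limma 3.58.1 in R 4.3.3 (8 residual degrees of freedom), with 7 contrasts, each adjusted by Benjamini-Hochberg over 22626 probe sets at 0.05. The fit was tested on simulated data. Every member could be named, and values of every array are given for called members and major hepatic forms; of other lists, called genes or those with the smallest p. Members and lists were chosen with earlier results of these data known. Correlations used 100000 permutations. Alternatives covered scaling, low values, variance models, array weights, probe set choice and left-out arrays.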

Additional observations from a re-analysis of the deposited data

How the results depend on the processing

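The counts of called P450 genes were small and moved with the processing. With wild type, knock-out and both averaged as the order, the counts after MMS were 1, 0 and 1 (6.44%, 1.51% and 11.3%). The share of all probe sets called under the same setting is given beside each. Centring each array on its median gave 3 in wild type (7.88%) and 0 averaged (12.3%). Leaving out low probe sets, which keeps 26 members, gave 4, 3 and 4 (14.5%, 14.8% and 25.4%). Array weights gave 7, 5 and 8 (21.5%, 25.6% and 33%), and a trended robust variance 3, 3 and 4 (7.39%, 4.55% and 13.3%). Averaging the probe sets of each gene gave 2 in wild type (8.42%) and 3 averaged (13.4%), and the spread of the compared groups alone gave 2 in wild type (5.94%). Array weights also gave 1 for genotype after MMS (6.55%) and 4 for the difference of responses (10.4%). Without knock-out mouse 3 of each treatment the counts were 4, 1 and 2 (9.82%, 14.7% and 18.5%), with 2 for genotype after MMS (Cyp1a1 and Cyp1a2, 5.98%) and 1 for the difference of responses (Cyp1a2, 2.27%), so calls rose over the whole array as well. Leaving out 1 array at a time gave 0 to 2 in wild type (1.21% to 7.95%) and 0 to 3 in the knock-out (0% to 14.4%). It gave 0 to 2 averaged (5.45% to 19%). The 3 in the knock-out came without knock-out MMS mouse 3, where the share was 14.4%. Genotype gave 0 to 0 untreated (at most 0.0796%) or over both treatments (at most 0.0575%), and 0 to 1 after MMS (at most 4.94%). The difference of responses gave 0 to 1 (at most 0.698%). Quantile normalization gave the same counts as the reported fit, 1, 0 and 1 (6.88%, 2.36% and 12.6%).

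Mouse numbers are shared by the groups, and no label says that a number marks a shared litter, batch or day. Correlations of deviations over 18 same-number pairs ran from -0.475 to 0.403, with 7 over 0.1, so the mice were treated as unpaired, although 8 of 12 arrays correlated best with their own number. With the replicate block, 0 members were called averaged over genotypes (9.63% of all probe sets), where Cyp2j6 was at -0.32 (adjusted p = 0.0652, limma). Of 273 values of single genes 2 were called, and these kept their call in 26 of 42 values under the alternatives. Over all 5784 values under 22 alternatives, 67 gained a call, 122 that were called in neither fit moved by more than the spread between mice, and 260 had another sign than as reported, none of them called.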

Other observations

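Among 24 genes of other P450 families, MMS in wild type called 2, or 8.33%, against 6.44% of all probe sets. Cyp4b1, which oxidises fatty acids and aromatic amines, fell by 0.61 (adjusted p = 0.0306, limma), and Cyp11a1, the side-chain cleavage enzyme of steroid synthesis, rose by 0.72 (adjusted p = 0.0401). None was called in the knock-out or with genotypes averaged. Of 30 measured phase I genes outside the P450s, the carbonyl reductase Cbr3 rose by 0.67 in wild type and by 0.81 in the knock-out, and the aldo-keto reductase Akr1c20 fell by 0.81 in wild type.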
